A study of Mus musculus with 96 samples.

Results

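The Kcnh family codes for the pore-forming subunits of the ether-à-go-go channels, and its 8 mouse genes were described here in neurons of the lateral superior olive (LSO), a nucleus of the auditory brainstem. All 8 were found by their Ensembl identifier among the 38887 genes of the expression table, and 5 of them were listed in at least 1 neuron. The study patch-clamped LSO neurons in brainstem slices of C57BL/6J mice of both sexes in the second postnatal week, aspirated the cytoplasm through the pipette and sequenced it (Patch-seq). No genetic change and no treatment was applied to any group. The neurons were labelled by firing pattern as principal neurons with onset firing (pLSO-Onset), principal neurons with sustained firing (pLSO-Sustained) and lateral olivocochlear neurons with delayed firing (LOC). A negative control was a pipette that only touched the slice.

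Principal neurons compare the sound level at both ears, and LOCs are efferents that project to the cochlea. Kcnh channels are voltage-gated potassium channels with a PAS domain at one end and a cyclic nucleotide-binding homology domain at the other. They fall into 3 subfamilies. The EAG channels are Kcnh1 (Kv10.1) and Kcnh5 (Kv10.2), which stay open during a depolarisation. The ERG channels are Kcnh2 (Kv11.1), Kcnh6 (Kv11.2) and Kcnh7 (Kv11.3), which inactivate fast and close slowly and so pass most of their current after a depolarisation. The ELK channels are Kcnh8 (Kv12.1), Kcnh3 (Kv12.2) and Kcnh4 (Kv12.3), which open near rest. In neurons, ERG currents are known to dampen repetitive firing and to act on the resting potential, and Kcnh2 is best known for the repolarisation of the heart.

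Of 86 labelled neurons and 10 controls, 80 neurons and 8 controls were used. The neurons comprised 41 pLSO-Onset and 11 pLSO-Sustained neurons, together 52 pLSOs, and 28 LOCs. The neurons cell_36, cell_39, cell_40, cell_54, cell_78 and cell_85 and the controls NC5 and NC6 were left out, because their label and their place in the cluster means of the study differed or, for cell_39, because other values stand under its name. No label names an animal, so each group counted as 1 sample, no test was made between groups, and SDs describe the spread over neurons. In pLSOs 1333 to 6276 genes were listed with a median of 2561, and in LOCs 1175 to 4408 with a median of 2394. In the libraries kept, each marker of pLSOs or LOCs had its larger share in the class it marks, but most were not confined to it. This is no independent check, because libraries whose label and cluster place differed had been left out. Spp1 was listed in 96.2% of pLSOs and 3.57% of LOCs, and Calca, which codes for CGRP, in 28.8% of pLSOs and 92.9% of LOCs. Ucn and Isl1 were at 0 in every pLSO. The other pLSO markers Lpgat1, Maf and Igsf3 were listed in 96.2%, 86.5% and 86.5% of pLSOs. In LOCs their shares were 46.4%, 28.6% and 28.6%. Among the 8 controls, Spp1 was listed in 4, with a mean of 58.4 TPM, and Calca in 5, with a mean of 51.9 TPM. Oligodendrocyte markers were listed in all 8 controls with summed levels of 389 to 42992 TPM, against 0 to 12818 TPM in pLSOs and 1 to 25765 TPM in LOCs.

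The unit of the table is TPM in whole numbers. Its values do not appear to be scaled by each gene's own length. Around rows 2000, 3000 and 4000, the read steps of the low values showed that the rows, which are ordered by identifier, had been divided by gene lengths in ascending order less 80 bases. At the top of the table the divisors were fitted to the steps, with an ascending order set in advance. Kcnh6 stands in row 336. The other 7 members stand in rows 9690 to 17066, where the steps were too small to be read, and the same order was assumed there. From these steps the reads behind a value were estimated, with medians of 882327 reads per library in pLSOs, 723574 in LOCs and 41076 in 7 of the controls. On this assumption Kcnh7 was divided by 1268 bases in place of its 15226 exonic bases, and Kcnh6 by 3 bases in place of 3549. Within a gene the divisor is the same in every library, and groups were compared on the TPM as deposited. The share of reads behind 1 TPM still differed between libraries, as the listing limits below show. Between genes, levels are given below only after rescaling to the own length, and they rest on this assumption. A value below 0.5 TPM is listed as 0. For Kcnh7 this corresponded to medians of 17.6 estimated RPM (reads scaled to the library total, as in TPM but with no gene length) in pLSOs and 14.8 in LOCs, and for Kcnh6 to less than 1 read in every library. Over the 80 neurons the limit of Kcnh7 ran from 8.6 to 25.3 RPM.

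Kcnh7 (ENSMUSG00000059742) lies on the minus strand of chromosome 2 at 62693414 to 63184287 (GRCm38, Gencode vM21). The 250 bases before its start are shown as the start region of the member whose listing differed most between both classes, with CpG dinucleotides in capitals (RefSeq, GRCm38.p6, chr2:63184288-63184537, minus strand).

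Kcnh7: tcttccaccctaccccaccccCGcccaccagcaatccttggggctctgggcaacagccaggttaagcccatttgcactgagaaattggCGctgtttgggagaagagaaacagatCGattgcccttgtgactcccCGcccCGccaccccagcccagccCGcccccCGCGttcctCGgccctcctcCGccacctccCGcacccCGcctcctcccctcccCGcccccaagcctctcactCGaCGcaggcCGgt

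This stretch held 16 CpG, more than 74.6% of 32851 mouse promoters of the same length, whose median was 6. The 6 other members with an entry held 14 to 21 CpG in their promoter stretch, and Kcnh7 did not stand apart from these values. Not all of these stretches lie before the gene start given below. That of Kcnh2, with 14 CpG, lies inside the gene (chr5:24329592-24329841). Those of Kcnh4 (chr11:100759779-100760028), Kcnh6 (chr11:106007898-106008147) and, by a few bases, Kcnh1 (chr1:192190527-192190776) reach into their gene. TATAAA, searched on both strands, was found in none of these 7 stretches and in 12.4% of all promoters. Kcnh3 has no entry.

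Among the ERG channels, Kcnh7 was the member that most pLSOs held. In pLSO-Onset neurons its values ran from 0 to 52 TPM with a median of 12, and 32 of 41 neurons (78.0%, 62.4% to 89.4%) listed it. All intervals on shares are exact Clopper-Pearson 95% intervals and cover counting error only. In pLSO-Sustained neurons the values ran from 0 to 89 TPM with a median of 9, and 8 of 11 neurons (72.7%, 39.03% to 94.0%) listed it. The ranges of both firing types overlapped, and their intervals did too. The mean was 13.8 ± 14.7 TPM (SD, n = 41) in Onset and 19.0 ± 25.8 TPM (SD, n = 11) in Sustained neurons. Without cell_55, the neuron with the highest value, the Sustained mean was 12.0 TPM. The difference of mean log2(TPM + 1), Onset minus Sustained, was -0.26, against a median of -0.07 over all genes. This is below the 1 on the log2 scale taken as a marked difference, by which 4.78% of 10319 genes were higher in Onset and 10.3% higher in Sustained neurons.

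In LOCs the median and every value but 1 was 0. The neuron cell_57 was listed at 1 TPM, which corresponds to 58.7 estimated reads or 38.7 RPM. Among the 8 controls, NC1 was listed at 2 TPM, which corresponds to 1.86 estimated reads. The LOC share of 3.57% (0.0904% to 18.3%) was below that of the controls of 12.5% (0.316% to 52.7%). Each came from a single library, and the intervals overlapped. Whether the value of cell_57 was expression or background was not tested. The intervals of pLSOs (76.9%, 63.2% to 87.5%) and LOCs did not overlap. The share of all genes with intervals apart is not given. In mean log2(TPM + 1), pLSOs minus LOCs gave 2.89, with means of 2.92 ± 2.02 (SD, n = 52) and 0.04 ± 0.19 (SD, n = 28). Of the 10319 genes listed in at least 5% of the neurons, 721 (6.99%) were higher in pLSOs and 483 (4.68%) higher in LOCs by at least 1. Kcnh7 was 1 of 42 genes with a difference of 2.89 or more. By the gap between the shares of pLSOs and LOCs of 73.4 percentage points, it came right after the marker Spp1, with 92.6 points. The next gene, Rorb, had 73.1 points, less than 1 neuron's share apart from Kcnh7.

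**Figure D1:**
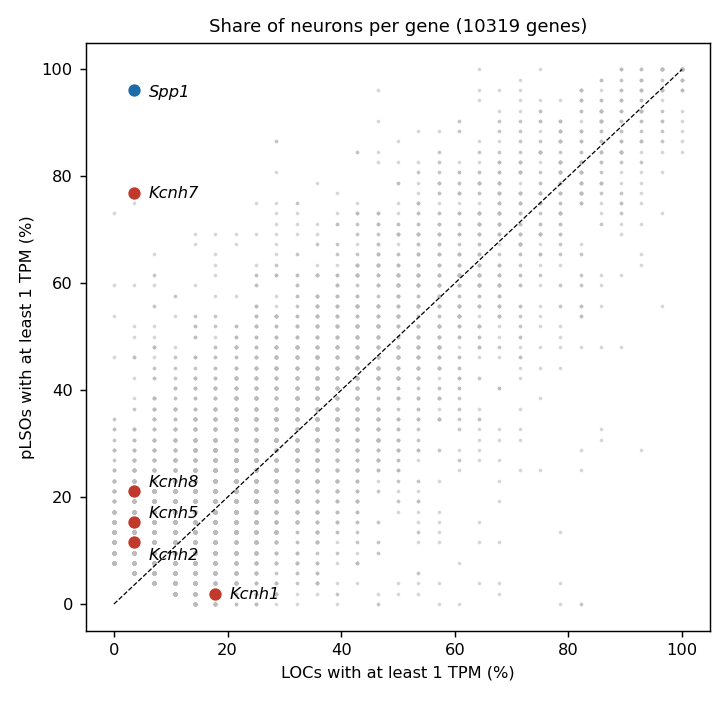
Share of LOCs (x axis, %) against share of pLSOs (y axis, %) with at least 1 TPM for each of 10319 genes (grey points), with the 5 listed Kcnh genes in red and the marker Spp1 in blue. The dashed line marks equal shares. Kcnh7 sits at 3.57% of LOCs and 76.9% of pLSOs, Kcnh8, Kcnh5 and Kcnh2 lie slightly above the line and Kcnh1 below it.

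The zeros of the LOCs did not go with a higher listing limit, which was lower in LOCs than in pLSOs on the RPM scale. With a common threshold of 30 estimated RPM, above the listing limit of every neuron, 75.0% of pLSOs and 3.57% of LOCs held Kcnh7. On that scale the mean was 503 ± 561 RPM in pLSOs (SD, n = 52) and 1.38 ± 7.32 in LOCs (SD, n = 28). The 41 neurons with Kcnh7 rested on 6.08 to 5714 estimated reads with a median of 537. Within pLSOs, Kcnh7 had a Pearson correlation of 0.06 with the number of listed genes and of -0.04 with log2 of the estimated reads (n = 52). In 26 of 52 pLSOs Kcnh7 was at 10 TPM or more, in 14 of these at 20 TPM or more, and in 5 pLSOs it was at 1 or 2 TPM.

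An exon of Gca, a gene on the opposite strand, shares 696 bases with Kcnh7, and reads there cannot be told apart, because Smart-seq2 libraries keep no strand. Gca was listed in 12 pLSO-Onset neurons, 10 of them with Kcnh7, and in no Sustained neuron or LOC. In 30 pLSOs Kcnh7 was listed while Gca was at 0. The summed markers of the other cell types had Pearson correlations with Kcnh7 from -0.26 for endothelium to 0.04 for microglia within the 52 pLSOs, and their part in the result was not tested beyond these values. All 4 endothelial markers together reached at most 3 TPM in a pLSO.

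**Figure D2:**
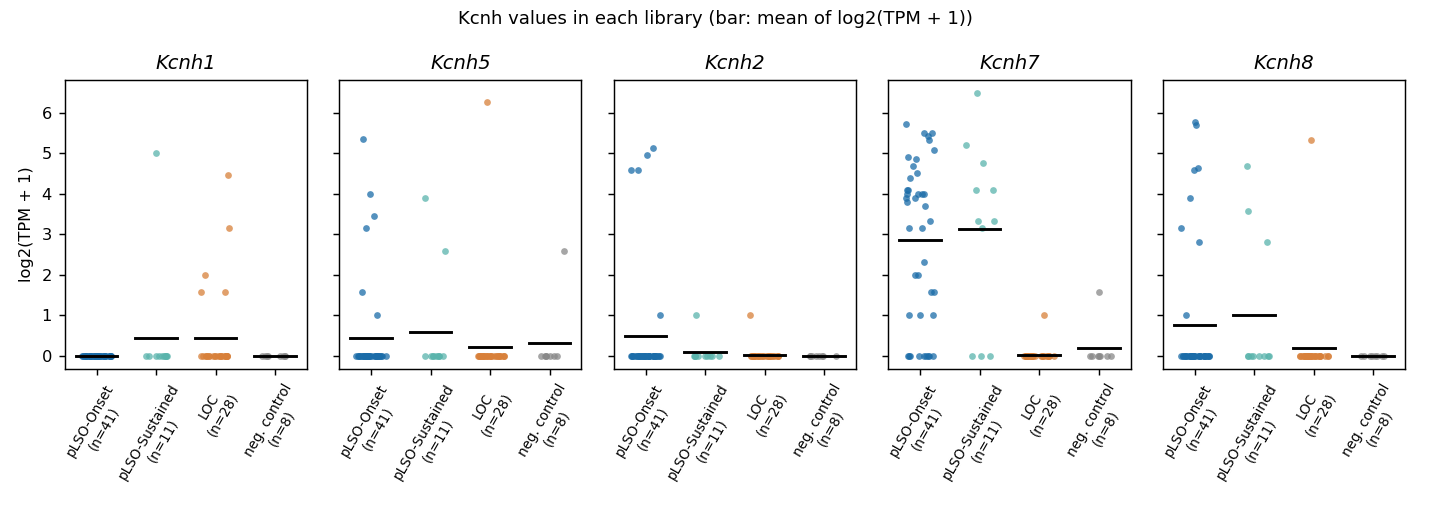
Values of the 5 listed Kcnh genes on the scale of log2(TPM + 1), with 1 point per library in 41 pLSO-Onset neurons, 11 pLSO-Sustained neurons, 28 LOCs and 8 negative controls. The bar is the mean of log2(TPM + 1). Only the Kcnh7 panel has most points of the 2 pLSO groups above 0, with 1 LOC at 1 TPM and 1 control at 2 TPM.

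Kcnh2, the ERG channel of the heart (chromosome 5, 24319589 to 24351604, minus strand), was listed in 6 of 52 pLSOs (11.5%, 4.35% to 23.4%) and 1 of 28 LOCs (3.57%, 0.0904% to 18.3%). The values of the 5 pLSO-Onset neurons were 34 TPM in cell_18, 30 TPM in cell_38, 23 TPM each in cell_1 and cell_34, and 1 TPM in cell_3. The Sustained neuron cell_45 and the LOC cell_68 were each at 1 TPM. Thus all 4 values above 1 TPM came from Onset neurons, and the intervals of the shares overlapped. The mean was 2.71 ± 8.39 TPM in Onset neurons (SD, n = 41). The controls were at 0, which for 8 libraries allows a share of up to 37.5%. In mean log2(TPM + 1), pLSOs minus LOCs gave 0.37, against 0.07 for the median of all genes, and Onset minus Sustained it was 0.40.

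Kcnh6, the remaining ERG channel (chromosome 11, 106008124 to 106034549, plus strand), was at 0 in all 80 neurons, which allows a share of up to 3.75%, and in all 8 controls. Because of its divisor of 3 bases, even a single read would have been listed, so it is the member whose zeros leave least room for unlisted reads.

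The EAG channel Kcnh1 (chromosome 1, 192190774 to 192510159, plus strand) was the only member listed in a larger share of LOCs than of pLSOs among the 80 neurons. Among the neurons with 2000 to 3500 listed genes this also held for Kcnh2, with 5.56% of LOCs and 5.41% of pLSOs. Kcnh1 was listed in 5 of 28 LOCs (17.9%, 6.06% to 36.9%). Its values there were 21 TPM in cell_83, 8 TPM in cell_74, 3 TPM in cell_75 and 2 TPM each in cell_58 and cell_66. In pLSOs a single Sustained neuron, cell_49, held it at 31 TPM (1.92%, 0.0487% to 10.3%), and all 41 Onset neurons were at 0, which allows up to 7.32%. The intervals of LOCs and pLSOs overlapped. The mean in LOCs was 1.29 ± 4.20 TPM (SD, n = 28) and 0.556 TPM without cell_83. In pLSOs it was 0.596 ± 4.30 TPM (SD, n = 52), all of it from cell_49. The log2 difference between pLSOs and LOCs was -0.36, and -1.04 on the RPM scale, on which the median of all genes was 0.16. No control held it.

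Kcnh5, the other EAG channel (chromosome 12, 74897220 to 75177332, minus strand), was listed in 6 Onset neurons between 1 TPM in cell_3 and 40 TPM in cell_22. The Sustained neurons cell_45 and cell_48 were at 14 and 5 TPM, and the LOC cell_68 at 76 TPM, the highest Kcnh5 value of the 80 neurons. The share was 15.4% in pLSOs (6.88% to 28.1%) and 3.57% in LOCs (0.0904% to 18.3%). It was 12.5% in the controls (0.316% to 52.7%), where NC2 was at 5 TPM from 4.31 estimated reads. The share in pLSOs was thus near that of the controls and the 3 intervals overlapped. The mean was 1.83 ± 6.33 TPM in pLSOs (SD, n = 52), and 1.08 TPM without cell_22. In LOCs it was 2.71 ± 14.4 TPM (SD, n = 28), all from cell_68, so the means ran opposite to the shares.

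Among the ELK channels, Kcnh8 (chromosome 17, 52602709 to 52979194, plus strand) was listed in 11 of 52 pLSOs (21.2%, 11.1% to 34.7%), after Kcnh7 the largest share of the family. The 8 Onset values ran from 1 TPM in cell_33 to 51 TPM in cell_23 and 54 TPM in cell_1. The Sustained neurons cell_50, cell_56 and cell_52 were at 25, 11 and 6 TPM. The LOC cell_75 was at 39 TPM and the other LOCs were at 0 (3.57%, 0.0904% to 18.3%), as were the 8 controls. The intervals of pLSOs and LOCs overlapped. The mean was 4.41 ± 12.4 TPM in Onset (SD, n = 41), 3.82 ± 7.88 TPM in Sustained (SD, n = 11) and 1.39 ± 7.37 TPM in LOC neurons (SD, n = 28). Without cell_50 the Sustained mean was 1.70 TPM. The log2 difference between pLSOs and LOCs was 0.63, and Kcnh8 was 1 of 1487 genes with at least this difference. It was 1.22 on the RPM scale and 1.11 per own length.

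Kcnh3 (chromosome 15, 99224861 to 99242817, plus strand) and Kcnh4 (chromosome 11, 100740376 to 100759942, minus strand), ELK channels known from the forebrain, were at 0 in all 80 neurons and 8 controls. For Kcnh3 a value listed as 0 could hide a median of 4.81 estimated reads and for Kcnh4 of 4.15. Of the 8 genes, 5 passed the filter of 5% of the neurons, and 1 of these, Kcnh7, was higher in pLSOs by at least 1 on the log2 scale, while none was higher in LOCs. Over all genes 6.99% and 4.68% were, so these counts alone do not set the family apart. On the RPM scale Kcnh7 (6.54) and Kcnh8 (1.22) were higher in pLSOs and Kcnh1 (-1.04) in LOCs, against 12.3% and 6.89% of all genes. In mean log2(TPM + 1), Kcnh7 was also the only 1 of the 5 higher in neurons than in controls by at least 1. It had 1.71 against 0.07 to 0.60 for the others, and 28.6% of all genes reached this. Kcnh8 passed 1 as well on the RPM scale (1.10) and, barely, per own length (1.003). No share of all genes is given on those scales.

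**Figure D3:**
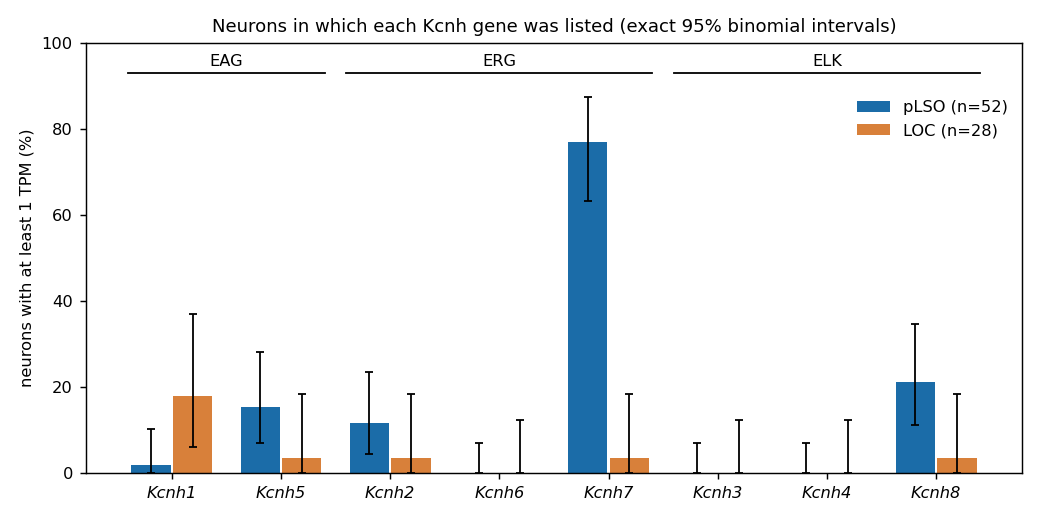
Share of neurons with at least 1 TPM (y axis, %) for each Kcnh gene, ordered by subfamily, in 52 pLSOs (blue) and 28 LOCs (orange), with exact 95% binomial intervals as error bars. The intervals of Kcnh7 are apart (63.2% to 87.5% against 0.0904% to 18.3%), and those of every other member overlap. Single neurons are the units of these intervals, and the share of all genes with intervals apart is not given.

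Levels of different members were compared per own length, as the mean of rescaled TPM. In pLSOs (n = 52) Kcnh7 was highest with 101 ± 117, followed by Kcnh8 with 30.5 ± 83.0, Kcnh2 with 21.9 ± 77.3, Kcnh5 with 16.98 ± 62.4 and Kcnh1 with 8.18 ± 59.0 (SD). Each step in this order was smaller than the SD over neurons. The median was 69.2 for Kcnh7 and 0 for each other member. In LOCs (n = 28) the order began with Kcnh1 at 16.99 ± 60.04 and Kcnh5 at 15.0 ± 79.5, and Kcnh7 at 0.259 ± 1.37 and Kcnh2 at 0.218 ± 1.16 came last of the listed members. Within the neurons that held it, Kcnh7 had a level per own length at or above that of 52.2% of the listed genes of its library (median over 41 neurons). Over all neurons, the order by deposited TPM put Kcnh7 first as well.

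Most neurons held at most 1 member. In 28 of 52 pLSOs Kcnh7 was the only Kcnh gene listed, 10 pLSOs held 2 members, 5 held 3, and 6 held none. In 21 of 28 LOCs no Kcnh gene was listed, 5 held 1 and 2 held 2. The mean number was 1.27 ± 0.795 in pLSOs (SD, n = 52) and 0.321 ± 0.612 in LOCs (SD, n = 28). The 5 neurons with 3 members were cell_1, cell_18, cell_33, cell_38 and cell_45, and all held Kcnh7. They had between 1641 and 6276 listed genes, from a shallow to the richest pLSO library. Of the 11 pLSOs with Kcnh8, 8 (72.7%) also held Kcnh7, close to its 76.9% in all pLSOs. Of the 8 with Kcnh5, 4 (50.0%) held Kcnh7, and of the 6 with Kcnh2, 4 (66.7%). Kcnh2 and Kcnh5 were both listed in 3 pLSOs and in the LOC cell_68. The LOC cell_75 held Kcnh1 and Kcnh8.

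**Figure D4:**
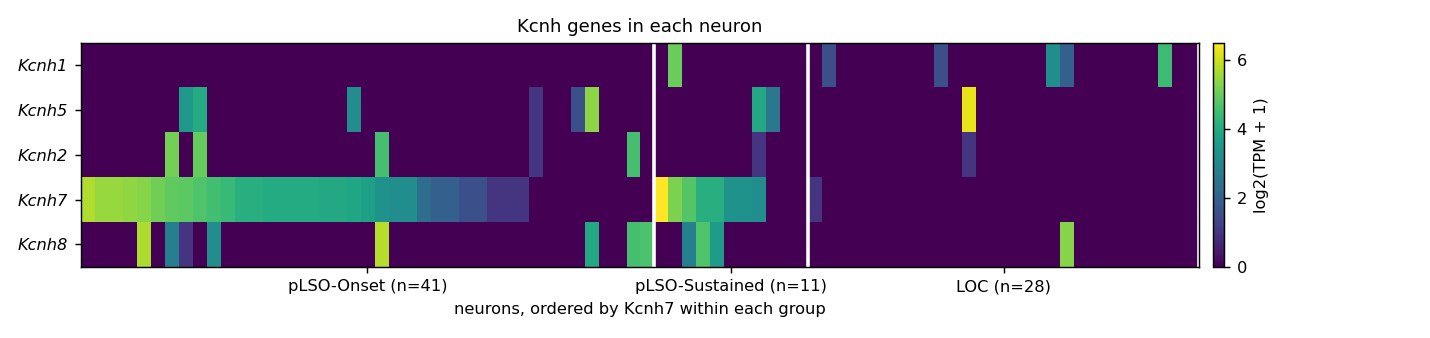
Value of each listed Kcnh gene (rows) in each of 80 neurons (columns, ordered by Kcnh7 within 41 pLSO-Onset neurons, 11 pLSO-Sustained neurons and 28 LOCs), as log2(TPM + 1) in colour. The Kcnh7 row is filled in 40 of 52 pLSOs, and the other rows hold scattered single neurons.

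The electrophysiological readouts of each neuron stand in the labels, so Kcnh values could be set beside them. All correlations here are descriptions over neurons that share groups, slices and days, for 16 readouts per group. Over the 52 pLSOs, Pearson's r of Kcnh7 as log2(TPM + 1) ran from -0.34 for the resting potential to 0.40 for the half-width of the action potential. For the half-width Spearman's rho was 0.40, and r was 0.42 without the 2 neurons farthest from the median half-width. In the 41 Onset neurons r for the half-width was 0.33. In the 11 Sustained neurons it was 0.58, and Kcnh7 had an r of -0.84 and a rho of -0.87 with the resting potential. Neurons with more Kcnh7 thus rested at more negative potentials there. Without the 2 neurons farthest from the median, r was -0.73. In Onset neurons the corresponding r was -0.21, and the difference between both groups was not tested. The resting potential itself had medians of -64.7 mV in Onset and -65.6 mV in Sustained neurons. In LOCs, where Kcnh7 was nearly at 0, the half-width had a median of 1.12 ms, against 0.395 ms in pLSOs.

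**Figure D5:**
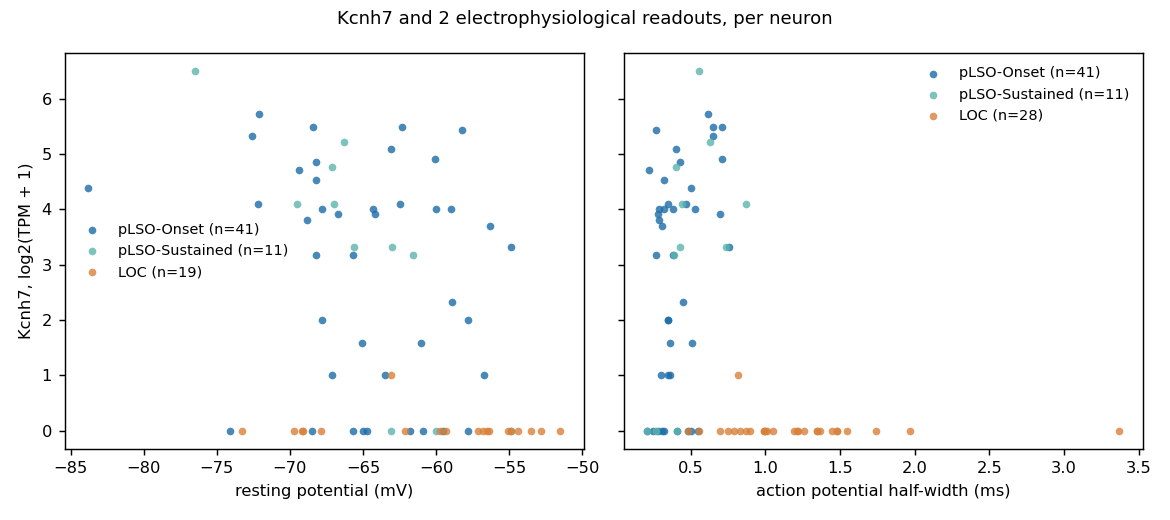
Kcnh7 as log2(TPM + 1) (y axis) against the resting potential in mV (left) and the half-width of the action potential in ms (right), with 1 point per neuron for 41 pLSO-Onset neurons, 11 pLSO-Sustained neurons and the LOCs with the readout. The Sustained points fall from upper left to lower right in the left panel (r = -0.84), and the Onset points are scattered (r = -0.21).

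Kcnh8, listed in 11 pLSOs, ran from r = -0.30 for the amplitude of spontaneous inhibitory currents to 0.41 for the half-width over the 52 pLSOs. Its r for the half-width was 0.22 without the 2 neurons farthest from the median. The other members were listed in fewer than 10 neurons, and no correlation was computed for them.

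Auxiliary subunits and trafficking factors of these channels were read from a list of 22 genes, of which 21 are in the table and 14 passed the filter. None was higher in pLSOs by at least 1 on the log2 scale and 1 was higher in LOCs, against 6.99% and 4.68% of all genes. On the RPM scale the counts were 2 and 0 of 14, against 12.3% and 6.89% of all genes. The 2 higher in pLSOs were the co-chaperones Dnajb14 (1.23) and Dnaja2 (1.09). The MinK-related subunits Kcne1, Kcne2, Kcne3 and Kcne4 were at 0 in every neuron. Alg10b, known to modulate Kcnh2, was at 0 as well. Calm2, which codes for calmodulin, the calcium sensor that binds EAG channels, was listed in all 80 neurons and in 7 of 8 controls. The chaperones Hsp90aa1, Hsp90ab1 and Hspa8, which act in the folding of Kcnh2, were each listed in 100% of pLSOs and LOCs. The controls held them too, Hsp90aa1 in 8 of 8 and the others in 6 of 8 each. The Hsp90aa1 mean was 4802 TPM in the controls against 1347 TPM in pLSOs. Without the highest library of each group it was 1130 TPM in the controls and 1292 TPM in pLSOs. The gene higher in LOCs was Fkbp8, a co-chaperone of Hsp90, in 50.0% of pLSOs and 64.3% of LOCs, with a difference of -1.26. On the RPM scale the latter was -0.95. Stub1, a ubiquitin ligase that acts on misfolded Kcnh2, was listed in 51.9% of pLSOs and 57.1% of LOCs.

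Of 40 pore-forming genes of voltage-gated potassium channels, Kcnh7 was listed in the largest share of pLSOs, before Kcna1 (Kv1.1) with 75.0%, whose share differed by 1 neuron. By the mean per own length in pLSOs, Kcna1 came first with 228.5 and Kcnh7 came next with 101, and by RPM this order was turned. In LOCs, Kcna1 was listed in 42.9%, while Kcnh7 shared place 12 by the share of neurons. Among the 32 genes outside the Kcnh family, 9 passed the filter. Kcna1 was the only 1 of them higher in pLSOs by at least 1 (1.57), and none was higher in LOCs. Of all genes, 6.99% and 4.68% were. On the RPM scale the differences of Kcna1 and Kcnq3 were 3.14 and 1.94. The median difference in mean log2(TPM + 1) of the 9 genes past the filter was 0.32, against 0.07 over all genes.

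The genes whose pattern was most like that of Kcnh7 were sought among genes listed in at least 10 neurons, by Pearson's r of log2(TPM + 1). Over the 80 neurons these were Sparcl1 (0.57), Cck (0.56), Upf3b (0.50), Sez6 (0.49) and Grin2b (0.49), among 6863 genes. Cck, which codes for cholecystokinin, was listed in 53.8% of pLSOs and no LOC. The most negative value was that of Calca with -0.59. Within the 52 pLSOs the genes were Upf3b (0.49), Bsg (0.48), Ccdc174 (0.48), Son (0.46) and Hist3h2a (0.44), so Upf3b was the 1 gene in both sets. By Spearman's rho, Upf3b was not among the 5 genes over the 80 neurons.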

How the data were processed

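Each of 96 libraries held the cytoplasm of 1 neuron or a negative control, prepared after a modified Smart-seq2 protocol with Nextera XT. Per the labels and methods, the authors trimmed reads with Trim Galore 0.4.2, aligned them to mm10 with STAR, marked duplicates with Picard 1.115 and counted them with featureCounts on an early Gencode release. The deposited values are a score, namely TPM that the authors rounded to whole numbers. Each library sums to between 999773 and 1000030. Names and lengths came from Gencode vM21, in which 37570 of 38887 genes have a length. No counts are in the table. The value of 1 read was therefore estimated per library from the steps of low values, of which 99.9% of 11132 in rows 1 to 1676 were whole multiples within 0.75 TPM. Steps and divisors in these rows were fitted by this same criterion, so that share is no independent check. Estimated reads use vM21 lengths and are approximate for later rows. For NC3 the step was uncertain, and it was left out of the depth.

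Groups followed the firing-pattern label. The 8 libraries left out were chosen with values seen, partly through the study's clusters, and all labelled libraries were run as an alternative. A gene was listed (detected) at 1 TPM or more. Differences are of mean log2(TPM + 1) with a pseudocount of 1, among genes listed in at least 5% of 80 neurons. No ratio was formed with 3 or fewer neurons listing a gene, and for 0 of n libraries the limit is 3 over n. Depth estimates and intervals cover counting error only, and PCR reads are not independent molecules. The genes named are the 8 members, lists of 22 partners and 40 pore-forming genes, cell type markers, and the 5 genes most like Kcnh7 over all neurons and over pLSOs. Rorb and Gca were added after their values were seen, the latter for its overlap. A result for 1 listed gene is not reported here. The members and lists were chosen with earlier results of these data known. The scripts were tested on simulated data. SciPy 1.17.1, NumPy 2.4.6, pandas 2.3.3 and matplotlib 3.10.9 ran under Python 3.11.15.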

Additional observations from a re-analysis of the deposited data

Results flagged for a closer look

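Among the 8 negative controls used, 2 libraries stood far from the others, which were all at 0: NC2 with 5 TPM of Kcnh5 and NC1 with 2 TPM of Kcnh7. The gap criterion is met by chance in about 1 of 20 groups of continuous values. Where all other libraries are at 0, any single listed value meets it, so that rate does not apply here. These values rested on 4.31 and 1.86 estimated reads.

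In the libraries that were left out, Kcnh genes were listed above the level of the controls. NC5, labelled a negative control, held 155 TPM of Kcnh5, more than any of the 80 neurons, together with 782 TPM of the pLSO marker Spp1. NC6, labelled likewise, held 23 TPM of Kcnh7 and 2 TPM of Kcnh8, with 75 TPM of Spp1 and 3104 listed genes. Both values of Spp1 stood beside Calca at 1 and 0 TPM. The neuron cell_85, labelled LOC, held 49 TPM of Kcnh8 and 4 TPM of Kcnh1 with an estimated 68351 reads, and cell_39, labelled pLSO-Onset, held 4 TPM of Kcnh7. The pLSO-Sustained neuron cell_54 had no Kcnh gene listed, with Calca at 1887 TPM and Spp1 at 0.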

How the results depend on the processing

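With all libraries as labelled, Kcnh7 was listed in 73.2% of pLSOs, 3.33% of LOCs and 2 of 10 controls, and the difference was 2.72. In neurons with 2000 to 3500 listed genes the shares were 75.7% and 5.56%. With a threshold of 10 TPM, 50.0% of pLSOs and 0.0% of LOCs held Kcnh7. Its mean per own length was 101 in pLSOs and 0.259 in LOCs, a change that follows from the divisor. Its difference was 1.03 with a pseudocount of 10 and 6.54 on the scale of estimated RPM (reads scaled to the library total), chosen after seeing the data, where a pseudocount of 1 is smaller relative to the values. With a difference of at least 2, 146 genes were higher in pLSOs and 110 in LOCs, since the criterion is stricter. No log2 difference between pLSOs and LOCs turned its sign for the 5 listed members. By share, Kcnh2 turned in the neurons with 2000 to 3500 listed genes (5.41% of pLSOs, 5.56% of LOCs). Also, Kcnh8 passed 1 on the RPM scale (1.22) and per own length (1.11), and Kcnh1 reached -1.04 on the RPM scale. Between neurons and controls, Kcnh8 passed 1 on the RPM scale (1.10) and per own length (1.003), but not on the deposited TPM (0.60). By Spearman's rho, 3 of the 5 genes most like Kcnh7 over all neurons were the same, and 5 of 5 within pLSOs. No paired analysis was possible because the labels name no animal and pair no neurons, and the results come from no test. Values at 1 TPM, the single neurons behind Kcnh1, Kcnh2, Kcnh5 and Kcnh8, and the missing animal labels limit these comparisons.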

Other observations

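Other potassium channel genes had a larger share in LOCs than in pLSOs, as Kcnh1 did. Kcnc4 (Kv3.4) was listed in 35.7% of LOCs and 3.85% of pLSOs, and Kcnd2 (Kv4.2), which carries A-type currents, in 25.0% and 1.92%. Kcnb2 (Kv2.2) was listed in 10.7% of LOCs and in no pLSO. These 3 genes were picked from the list after their values were seen, and Kcnb2 did not pass the filter of 5% of the neurons. Their differences in mean log2(TPM + 1), pLSOs minus LOCs, were -0.87, -0.65 and -0.20. On the scale of estimated RPM they were -1.46, -1.74 and -0.91, so that Kcnc4 and Kcnd2 passed 1 there.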
